A study of Homo sapiens with 2 samples.

Results

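The 10 genes described here encode nuclear receptors that fibroblasts are known to carry, namely NR3C1, RARA, RARG, RXRA, RXRB, NR2F2, PPARD, THRA, VDR and ESRRA. They were taken by name, as receptors for ligands and their RXR partners, with earlier results of these data known. All 10 had a value among the 12353 genes of the table, which is therefore not independent of the choice. Their transcription was read by GRO-seq, a global run-on assay, in 2 libraries of BJ cells, an established line of human skin fibroblasts. Engaged RNA polymerases in isolated nuclei were allowed to extend their transcripts with bromouridine, and the tagged RNA was captured and sequenced, so a level reports polymerase on the gene and not mature mRNA. Both libraries came from untreated cells kept in medium with 10% serum, with no ligand, genotype or time compared, and they form 1 group. Pairs of values below give library a first and library b second.

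Nuclear receptors are transcription factors with a zinc finger domain that binds DNA and, in most of them, a pocket that binds a small fat-soluble ligand. The glucocorticoid receptor waits in the cytoplasm on heat shock proteins and binds DNA as a homodimer once hormone arrives. The receptors for retinoic acid, thyroid hormone, vitamin D and fatty acids sit on DNA as heterodimers with an RXR, where they recruit corepressors without ligand and coactivators with it. COUP-TFII, the product of NR2F2, and ERR-alpha, the product of ESRRA, are orphan receptors, whose activity is not set by a classical hormone. In skin fibroblasts, glucocorticoids, retinoids and vitamin D are known regulators of growth and of the collagen matrix.

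The promoters of 4 of the genes are shown, chosen because their levels run from 18.6 down to 4.68 FPKM (a unit explained below) and no other annotated gene lies in the window. Each line gives the 250 bases before a RefSeq start (GRCh38.p14), from 5′ to 3′ on the strand of the gene, and capitals mark the GC box GGGCGG and the CCAAT box on either strand. ESRRA lies at chr11:64305274-64305523 (plus strand), RARG at chr12:53232210-53232459 (minus), PPARD at chr6:35342308-35342557 (plus) and RXRA at chr9:134326205-134326454 (plus).
ESRRA: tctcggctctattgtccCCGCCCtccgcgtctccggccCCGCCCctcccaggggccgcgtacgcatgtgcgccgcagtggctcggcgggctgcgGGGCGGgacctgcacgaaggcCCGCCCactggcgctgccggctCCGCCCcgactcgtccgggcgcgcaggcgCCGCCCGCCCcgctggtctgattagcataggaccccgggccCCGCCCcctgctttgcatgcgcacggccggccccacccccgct
RARG: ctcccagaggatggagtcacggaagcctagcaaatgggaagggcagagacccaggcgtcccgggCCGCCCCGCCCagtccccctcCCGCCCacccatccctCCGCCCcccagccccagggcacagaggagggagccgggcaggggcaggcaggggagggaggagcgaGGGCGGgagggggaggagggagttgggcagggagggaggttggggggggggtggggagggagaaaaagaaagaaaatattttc
PPARD: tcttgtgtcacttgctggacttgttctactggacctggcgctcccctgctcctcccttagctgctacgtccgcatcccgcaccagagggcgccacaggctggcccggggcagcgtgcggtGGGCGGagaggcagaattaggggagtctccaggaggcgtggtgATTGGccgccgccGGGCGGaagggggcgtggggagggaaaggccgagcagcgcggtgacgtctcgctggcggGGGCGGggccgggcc
RXRA: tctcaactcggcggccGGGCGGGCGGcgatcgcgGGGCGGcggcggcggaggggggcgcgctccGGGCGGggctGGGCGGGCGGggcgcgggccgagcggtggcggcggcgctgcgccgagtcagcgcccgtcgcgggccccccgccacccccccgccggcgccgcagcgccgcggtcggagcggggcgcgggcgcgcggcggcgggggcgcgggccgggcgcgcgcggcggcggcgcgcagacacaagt

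RXRA had the richest of these sequences, with a G+C content of 89.2% and 59 CpG dinucleotides, against medians of 58% and 11 over the 35116 RefSeq promoter windows of this length. ESRRA stood at 78% with 35 CpG, PPARD at 70.8% with 23 and RARG at 69.6% with 10. Counted with overlapping matches, the GC box occurred 8 times upstream of ESRRA, 6 times upstream of RXRA, 5 times upstream of RARG and 3 times upstream of PPARD, while 42.6% of all windows held it at least once. The CCAAT box occurred once, upstream of PPARD, and was present in 32.01% of all windows. None of the 4 held TATAAA, found in 10.7% of all windows, or AGGTCA, the core hexamer that RXR heterodimers are known to bind, found in 12.1% (both strands searched). The motifs do not share letters with each other in these windows, and a match is a description of the sequence, not a site in use.

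The windows of 300 bases that also take in the first 50 transcribed bases were available for 9 of the 10 genes, with 20 starts in all, and VDR had none. The GC box was present in 16 of the 20 windows (80%), in 65.3% of the 14536 windows of genes with a value and in 45.0% of all windows. Several of the 20 belong to the same gene, 7 of them to NR3C1, and some overlap, so they are not independent. Whether their share differs from that of other genes was not tested. The median G+C content was 62.5% with 23 CpG in these 20 windows, 64.7% with 25 in windows of genes with a value and 58.7% with 14 in all windows. Starts of 1 gene differed widely. The 2 listed starts of RXRA stood at 84% with 65 CpG and at 64.7% with 8. The 7 listed starts of NR3C1 ranged in G+C content from 34.7% to 82.3% and in CpG from 0 to 51, and only the window lowest in G+C held TATAAA. Since a single value per gene was deposited, the level could not be divided among its starts. For RXRB, whose window overlaps that of the oppositely oriented zinc transporter gene SLC39A7, no sequence is shown. SLC39A7, named after its value was seen, stood at 43.69 and 44.17 FPKM.

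Most of the 10 receptor genes were transcribed at or somewhat above the level of the typical gene, and NR2F2 stood far above the rest. Levels are FPKM, which divides the fragments counted on a gene by its length in kilobases and by library size, and errors are the SD over the 2 libraries (n = 2). NR2F2 reached 63.5 ± 2.43, 5.42 times the median gene of the table (11.7), and RXRA was lowest at 4.68 ± 0.912, 0.40 times the median gene. The highest and lowest levels were 13.6-fold apart. With 1 group there was no test to run and no p-value is given. In a bulk culture, fewer cells transcribing a gene and less transcription per cell cannot be told apart.

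Over the 10 genes the median FPKM was 15.8, 1.35 times that of all genes (1.38 times in library a and 1.32 times in library b). In both libraries 7 of the 10 lay above the median of all genes, as did 47.6% of all genes, and the other 3, PPARD, VDR and RXRA, lay below it in both, again the case for 47.6% of all genes. In both libraries 3 of the 10, NR2F2, RXRB and RARA, lay above the upper quartile of all genes, as did 23.4% of all genes. The share in the upper quartile was thus near that of all genes. The count above the median rests on 10 genes with no test, chosen with earlier results of these data known.

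**Figure D1:**
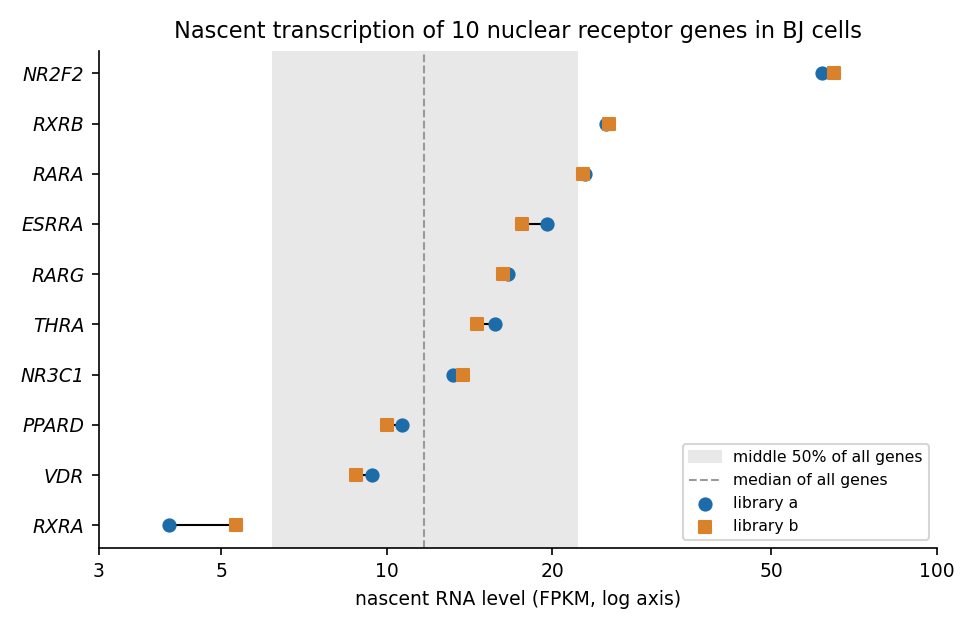
FPKM of the 10 receptor genes on a log axis, with a circle for library a, a square for library b and a line joining them; the grey band is the middle 50% of all genes and the dashed line their median (11.7). NR2F2, RXRB and RARA lie to the right of the band in both libraries, and RXRA lies to the left of it. The ranges of different genes do not overlap, as for 93.1% of all pairs of genes in the table.

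Among the partners for heterodimers, RXRB held most of the summed FPKM of the measured RXR genes. No source used here gives the gene lengths behind these FPKM, so the amount of polymerase on each whole gene cannot be compared. RXRB (ENSG00000204231), the beta retinoid X receptor, stood at 25.06 and 25.40. RXRA (ENSG00000186350), the alpha form, stood at 4.03 and 5.32. The ranges were far apart, and the log2 ratio of RXRA to RXRB, taken after adding 0.1 to each FPKM as in all log2 ratios here, was -2.61 and -2.23 (-2.42 ± 0.264), so RXRB was 5.40 times as high by means. RXRB held 86.1% and 82.7% of the summed RXRA and RXRB FPKM. The third gene of the subtype, RXRG, had no value in the table.

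RARA and RARG, which encode retinoic acid receptors, differed little between libraries. RARA (ENSG00000131759) was at 22.92 and 22.73, and RARG (ENSG00000172819) at 16.63 and 16.25. RARA was 1.38-fold and 1.40-fold higher than RARG in the respective libraries, a log2 ratio of 0.47 ± 0.0150. The third receptor gene, RARB, which is itself a classical retinoic acid target, was at 11.16 and 13.75. RARA exceeded it 2.05-fold and 1.65-fold. The order RARA, RARG, RARB was thus the same in both libraries. None of the 3 ranges overlapped, which was also so for 93.1% of all pairs of genes in the table.

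THRA (ENSG00000126351), the gene of thyroid hormone receptor alpha, was at 15.75 and 14.58, whereas THRB was at 2.84 and 2.91. THRA held 84.7% and 83.4% of the summed level of this pair, a log2 ratio of 2.36 ± 0.102. THRA is annotated with a span that overlaps NR1D1, the gene of the clock repressor REV-ERB-alpha, which is known to lie on the opposite strand. NR1D1 was at 47.52 and 53.72, 3.34 times THRA by means. Nothing used here states whether the counting took strand into account, so reads of the shared stretch cannot be assigned to either gene.

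PPARD (ENSG00000112033), whose product responds to fatty acids, led the PPAR genes at 10.66 and 10.01. PPARA, the form best known from liver, was at 6.96 and 7.63, and PPARG, the regulator of fat cells, at 1.86 and 3.16. PPARD held 54.7% and 48.1% of the summed PPAR level. The ratio of PPARD to PPARG depended on the library, at 5.73 and 3.17, and PPARG itself differed 1.70-fold. PPARG was the 1 receptor gene of the 31 measured that passed the 1.5-fold limit used below, which 2.16% of all genes passed. PPARG lies in the lowest of 5 equal level classes, where the median difference between libraries was 1.15-fold.

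VDR (ENSG00000111424), the vitamin D receptor gene, was at 9.40 and 8.81, both below the median gene. It exceeded RXRA, the gene of a partner it binds, 2.33-fold and 1.66-fold. Summed over RXRA and RXRB, the RXR level was 29.09 and 30.72, while RARA, RARG, PPARD, THRA and VDR together came to 75.36 and 72.38. The ratio of the RXR sum to the partner sum was 0.386 and 0.424 (0.405 ± 0.0272). The RXR sum takes in fewer genes than the partner sum, so the ratio would be low even with equal levels per gene. It therefore does not show that RXR genes were transcribed less than partner genes. This partner sum holds described genes only. Other measured partners, among them RARB (11.16 and 13.75), PPARA, PPARG, THRB and NR1I3, are left out, and the ratio would be lower with them. RARA supplied the largest part of the partner sum, 30.4% and 31.4%, and VDR the smallest, 12.5% and 12.2%.

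Among the receptors that act without RXR, NR3C1 stood well above NR3C2 and the estrogen receptor genes. NR3C1 (ENSG00000113580), the glucocorticoid receptor gene, was at 13.22 and 13.79. NR3C2, whose product also binds glucocorticoids, was at 1.05 and 1.30, a log2 ratio of 3.42 ± 0.158 in favour of NR3C1. The estrogen receptor genes ESR2 (3.56 and 3.37) and ESR1 (2.33 and 2.80) were low as well, and PGR, the progesterone receptor gene, had no value.

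NR2F2 (ENSG00000185551) was at 61.74 and 65.17, ranking 589 of 12353 genes by mean, at percentile 95.2. It exceeded its paralogs NR2F1 (16.46 and 16.84) by 3.75-fold and 3.87-fold and NR2F6 (15.10 and 15.17) by 4.09-fold and 4.30-fold. The span of NR2F2 also overlaps those of the antisense RNA gene NR2F2-AS1 and the microRNA gene MIR1469. Neither of these had a value of its own, so any reads of theirs counted on NR2F2 cannot be told apart. ESRRA (ENSG00000173153), the gene of a regulator of mitochondrial metabolism, was at 19.60 and 17.60. Its span overlaps TRMT112, a methyltransferase activator gene with 66.85 and 70.43, and the same limit on strand holds there. Of the 10 genes 7 have a span shared with another annotated gene, and these partners had a value for 2, THRA and ESRRA. Of the paralogs of ESRRA, ESRRB and ESRRG had no value.

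**Figure D2:**
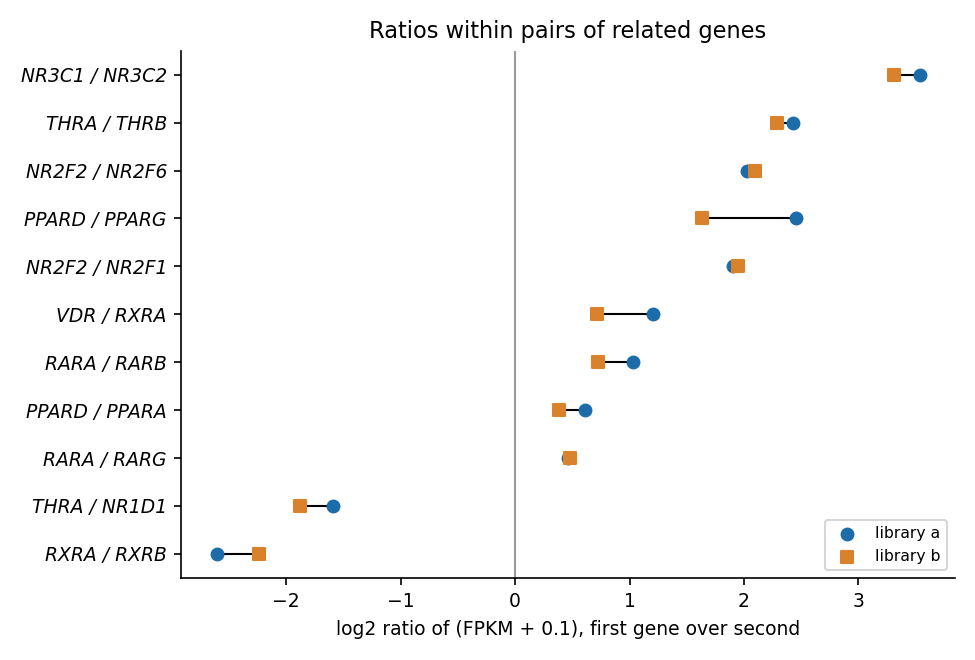
Log2 ratio of (FPKM + 0.1), first gene over second, for the 11 of 13 pairs with both genes measured; circles are library a and squares library b. The ratio of RXRA to RXRB lies lowest and that of NR3C1 to NR3C2 highest, and in each of the 11 pairs both points fall on the same side of 0.

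Ordered by mean level, the genes ran NR2F2, RXRB, RARA, ESRRA, RARG, THRA, NR3C1, PPARD, VDR and RXRA. No 2 neighbours in this order had overlapping library ranges, and in all 45 pairs of the 10 genes the ranges shared no point. That was so for 93.1% of all pairs of genes in the table, and 2 libraries give a narrow range. Some steps were small. RARG exceeded THRA by 1.06-fold and 1.11-fold, THRA exceeded NR3C1 by 1.19-fold and 1.06-fold, and ESRRA exceeded RARG by 1.18-fold and 1.08-fold. The largest steps were those at the ends, 2.46-fold and 2.57-fold from RXRB to NR2F2 and 2.33-fold and 1.66-fold from RXRA to VDR.

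The 2 libraries gave nearly the same level for 9 of the 10 genes. The larger value exceeded the smaller by 1.008-fold for RARA, the steadiest, and by at most 1.11-fold, for ESRRA, among those 9, while RXRA differed 1.32-fold. Library a was higher for 6 of the genes and library b for 4. After centring on the median gene, 0 of the 10 differed by more than 1.5-fold, against 2.16% of all genes (267). RXRA lies in the lowest of 5 equal level classes, in which the median difference was 1.15-fold, compared with 1.07-fold in the highest class, which holds NR2F2.

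**Figure D3:**
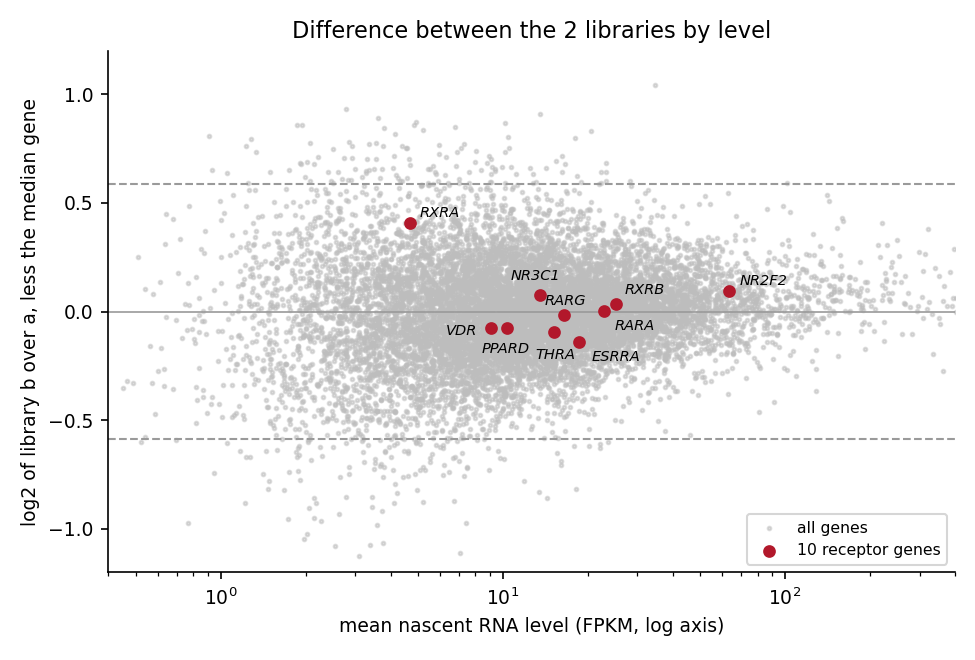
Log2 of library b over library a, less the median gene, against mean FPKM (log axis) for all genes (grey) and the 10 receptor genes (red), with dashed lines at a difference of 1.5-fold; 59 genes lie outside the axes. All 10 lie between the dashed lines, RXRA highest at 0.41 and ESRRA lowest at -0.14.

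The human nuclear receptor family has 48 genes, of which 31 (64.6%) had a value, against 59.8% of all RefSeq protein-coding genes. Outside the 10 described genes, 21 of 38 (55.3%) had one. The lowest values in the table are 0.29 and 0.27 and no 0 occurs, so for a gene missing from it no level can be stated. The 10 genes, all chosen for being known in fibroblasts and with earlier results of these data known, held 47.8% and 46.8% of the summed FPKM of the 31. The median of the other 21 was 8.50, and 6 of them lay above the median of all genes in both libraries, as did 47.6% of all genes.

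NR1D1, with a mean of 50.6 ± 4.38, lay below NR2F2 and above RXRB in both libraries. Several others had ranges over the 2 libraries that overlapped those of described genes. Within each library some of them still kept the same order, such as NR1H2 above ESRRA and NR1D2 below ESRRA. NR1H2, the gene of the oxysterol receptor LXR-beta (23.74 and 18.57), overlapped RARA and ESRRA, and NR2C2 (18.72 and 18.24) overlapped ESRRA. NR1D2, a paralog of NR1D1 (17.61 and 15.55), overlapped ESRRA, RARG and THRA, NR2F1 overlapped RARG, and NR2F6 overlapped THRA. RARB and NR1H3, the gene of LXR-alpha (10.50 and 14.38), overlapped NR3C1. PPARD was overlapped by NR1H3, NR1I3 and NR2C1 (10.54 and 11.81), and VDR by NR1I3 and NR4A2 (9.40 and 7.60). NR2F2, RXRB and RXRA overlapped no other receptor gene, and 93.1% of all pairs of genes in the table had ranges that shared no point. RXRA (4.03 in library a) lay only just above NR4A1 (3.96 in library b).

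By subfamily, values were present for 15 of 19 genes of NR1, which holds the receptors for thyroid hormone, retinoic acid, fatty acids and vitamin D, for 7 of 12 of NR2 and for 6 of 9 of NR3. Their median levels were 12.4, 16.7 and 3.50. In NR4, the immediate early receptors, NR4A2 was at 8.50 ± 1.27 and NR4A1 at 3.76 ± 0.290. NR6A1 was the lowest of the family at 0.805 ± 0.0212, and the 4 genes of NR5 and NR0, which act mainly in steroid-producing tissues and liver, had no value. Of the RXR partners known from liver and gut, NR1H4 for bile acids and NR1I2 for foreign compounds had none either, while NR1I3 was at 8.67 and 10.25.

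**Figure D4:**
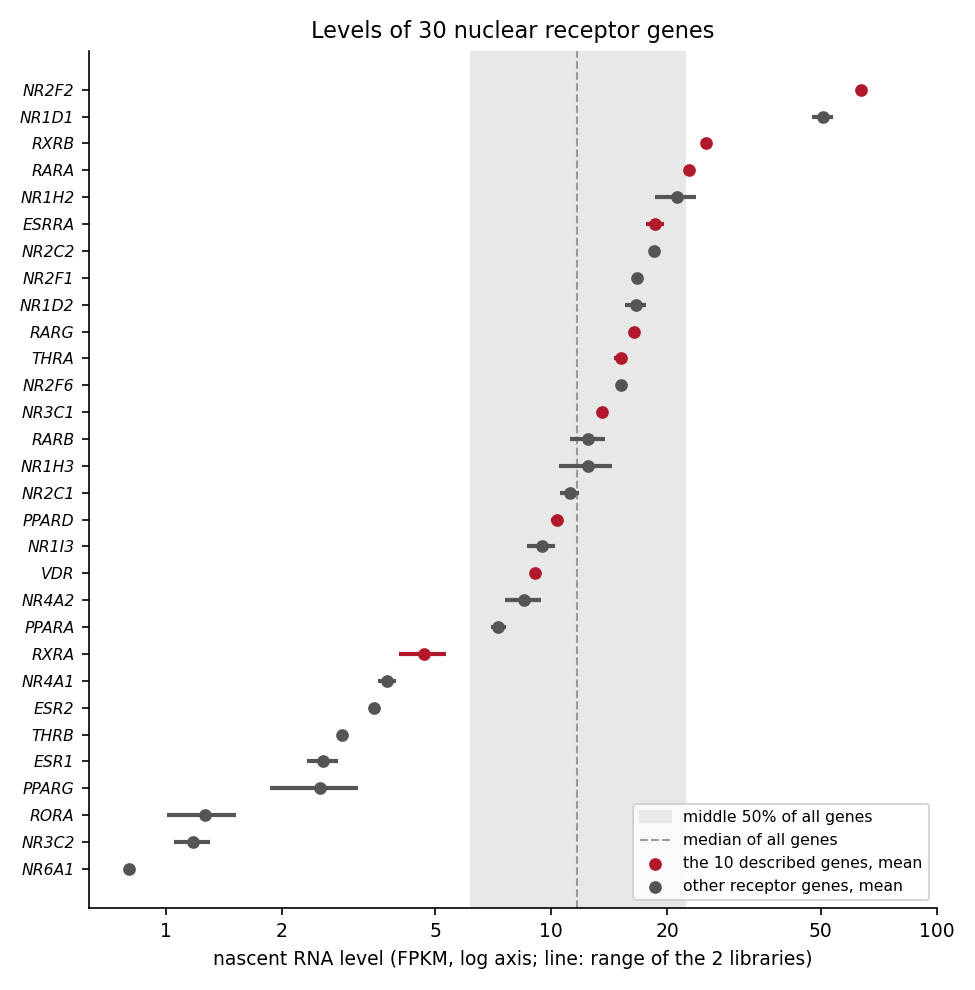
Mean FPKM (points, log axis) and range of the 2 libraries (lines) for 30 of the 31 nuclear receptor genes with a value (1 is not drawn), the 10 described genes in red, the others in dark grey; the grey band is the middle 50% of all genes. Of the described genes, NR2F2 (63.5) is at the top of the family and RXRA (4.68) is the only one left of the band.

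The proteins that receptors need were transcribed to different degrees, as shown by 3 lists of cofactors. All 16 chaperone genes of steroid receptors had a value, against 59.8% of RefSeq protein-coding genes. Their median was 31.6, or 2.70-fold the typical gene, and 15 of the 16 lay above the median in both libraries, against 47.6% of all genes. They were led by the heat shock genes HSPA8 (362 ± 5.78), HSP90AB1 (188 ± 6.55) and DNAJB1 (105.2 ± 0.0354). The exception was FKBP5, whose product holds the glucocorticoid receptor in a state of low affinity, at 1.2 and 0.82.

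Coactivators and corepressors lay near the typical gene. Of 14 coactivators 13 had a value, against 59.8% of RefSeq protein-coding genes. Their median was 10.7, and 5 lay above the median of all genes in both libraries, where 47.6% of all genes lay. PPRC1 (29.9 ± 1.03), the methyltransferase gene PRMT1 (28.8 ± 0.728) and the Mediator subunit MED1 (22.1 ± 2.57) were highest, PPARGC1B was lowest at 0.635 ± 0.106, and PPARGC1A had none. All 9 corepressor genes were measured, again against 59.8%. Their median was 11.7, and 4 lay above the median, again beside 47.6%. GPS2, a subunit of the NCoR complex, was at 117.37 and 129.83, the deacetylase gene HDAC3 of the same complex at 23.1 ± 0.622, and TBL1X lowest at 3.11 ± 0.438.

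Genes that supply or clear the ligands were measured unevenly, where 59.8% of RefSeq protein-coding genes had a value. For retinoids 8 of 17 had a value, with a median of 11.0 and 3 above the median in both libraries (all genes 47.6%). CRABP2, which carries retinoic acid to its receptors, was at 40.42 and 34.97, RDH10, which makes retinaldehyde, at 23.0 ± 1.23, and RDH11 at 14.7 ± 0.445, while STRA6, the retinol importer, was lowest at 1.35 ± 0.0141. ALDH1A2, a retinoic acid synthesis gene named after its values were seen, was at 1.15 and 1.83 and differed by over 1.5-fold between libraries. The clearing enzymes CYP26A1, CYP26B1 and CYP26C1 had none. For vitamin D all 3 had a value. CYP2R1 was at 15.2 ± 2.93, the activating enzyme CYP27B1 at 15.90 and 14.33, and CYP27A1 at 5.46 and 2.98, also over 1.5-fold apart. For thyroid hormone 6 of 8 were measured, with a median of 7.05, led by the transporter gene SLC7A5 (25.03 ± 0.679), with the deiodinase gene DIO1 at 7.30 ± 0.354 and CRYM lowest at 3.49 ± 0.453. For glucocorticoids, HSD11B1, which regenerates cortisol, had no value, the inactivating enzyme gene HSD11B2 was at 4.87 ± 1.07 and H6PD at 4.36 ± 0.382.

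Textbook target genes are listed as levels only, since no ligand was added or withheld and each is driven by other factors too. Their counts with a value stand beside 59.8% for RefSeq protein-coding genes. Of 14 glucocorticoid targets 12 had a value, with a median of 20.7, and 9 lay above the median in both libraries, as did 47.6% of all genes. DUSP1 (637 ± 61.8), a phosphatase gene that serum also induces, the metallothionein gene MT2A (246 ± 19.0) and the NF-kB inhibitor gene NFKBIA (67.2 ± 5.47) were highest, and FKBP5, itself a target, was lowest. Differences over 1.5-fold between libraries were seen for 2 of the 12, MT1X (14.52 and 22.17) and TAT (2.72 and 1.39), which are named after their values were seen; the share over all genes was 2.16%. Of 8 genes that ERR-alpha is known to drive, all were measured, with a median of 23.2, and 7 lay above the median (all genes 47.6%), led by the respiratory genes ATP5F1B (55.8 ± 7.67), COX5B (38.4 ± 6.31) and CYCS (30.7 ± 0.679), with IDH3A lowest at 4.395 ± 0.615.

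For the other receptors the share of targets with a value varied around the 59.8% of all protein-coding genes, except for vitamin D. Retinoic acid targets had values for 6 of 11, with a median of 11.2 and 2 above the median in both libraries (all genes 47.6%); after CRABP2 came TGM2 (13.3 ± 0.919) and RARB, and STRA6 was lowest. PPAR targets had 10 of 15, with a median of 12.01 and 5 above the median of all genes in both libraries, beside the same 47.6%, led by the fatty acid oxidation gene ACADVL (105 ± 7.82) and FABP3 (18.8 ± 1.65), with CAT lowest at 4.25 ± 0.205. PDK4, a known target of PPARD, had none. ANGPTL4 of the same list, named after its values were seen, was at 8.32 and 6.77, below the median gene in both libraries. Thyroid hormone targets had 5 of 7, with a median of 13.1, led by ATP2A2 (34.9 ± 1.42), THRSP (34.8 ± 3.75) and KLF9 (13.1 ± 1.02), with ME1 lowest at 5.19 ± 0.127. None of the 9 vitamin D targets had a value, among them CYP24A1, the enzyme that degrades the hormone.

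**Figure D5:**
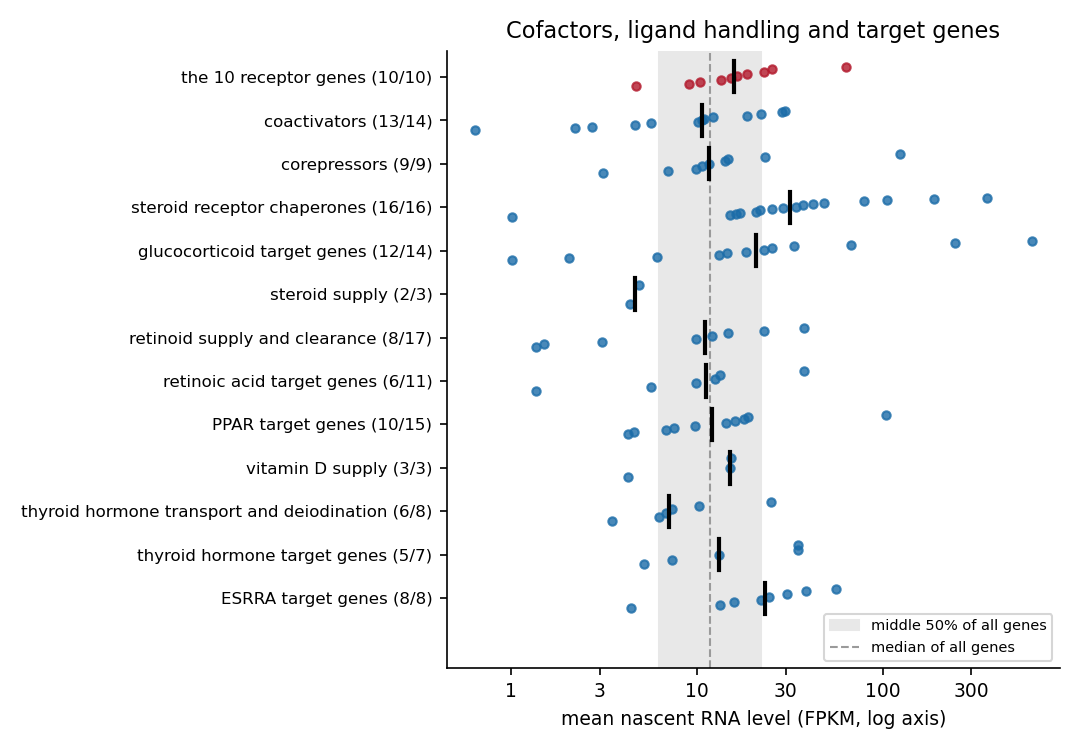
Mean FPKM (log axis) of each measured gene of the receptor, cofactor, ligand and target lists, with the number measured of the number listed beside each name; black bars are medians, the grey band is the middle 50% of all genes and the dashed line their median. The chaperone list has the rightmost median (31.6), with FKBP5 (1.01) apart at the left; the vitamin D targets, with no values, are not drawn.

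Markers of the labelled cell type were present. All 10 fibroblast markers had a value, against 59.8% of RefSeq protein-coding genes, led by COL1A1, VIM and COL1A2 with means of 353 or more. DCN (6.99 and 7.69) and PDGFRA (9.20 and 8.23) lay below the median gene in both libraries, and the other 8 above it, where 47.6% of all genes lay. The summed FPKM of the 10 was 1793 and 1699. Of other cell types 1 of 5 keratinocyte, 0 of 4 endothelial, 1 of 4 leukocyte and 2 of 4 melanocyte markers had one. The leukocyte marker with a value was the lysosomal gene CD68 (114 ± 2.44), which other cells also transcribe, and the leukocyte antigen gene PTPRC had none. Of the melanocyte markers, PMEL was at 23.97 and 20.81, above the median gene in both libraries, and MLANA at 4 and 5.06, below it in both. They summed to 27.97 and 25.87, while TYR and DCT had no value. The part of such cells in the receptor levels was not tested.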

How the data were processed

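The 10 genes, lists and pairs were chosen with earlier results of these data known. The authors deposited FPKM values for 12353 Ensembl genes in 2 columns, not pooled; the submitters' processing notes list Bowtie2, HTSeq and hg19. No source used here gives the gene lengths, filters, or handling of strand and introns. The column letters, a and b, could not be matched to replicate numbers and serve as names only. Depth is unknown: among the 500 lowest genes the fullest bin of the log2 ratio between libraries (width 0.01) held 12, so whole reads could not be recovered. The labels call the libraries biological replicates.

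Symbols came from an Ensembl name table (12202 matched); promoters and overlaps came from RefSeq on GRCh38.p14, whose build differs from hg19. Means, SDs, ratios after adding 0.1, and counts were computed with Python 3.11.15, pandas 2.3.3 and numpy 2.4.6, with code tested on simulated data. Named genes are the 10 receptors, their family, pair members, genes with overlapping spans, and the 3 highest and the lowest of each list; some of these are not reported here. No genes of similar pattern are named, as 2 libraries of 1 group give no pattern. Alternatives were other pseudocounts (1 and 0.01), a minimum mean FPKM of 1, nuclear protein-coding genes only, quantile normalization, each library alone, list means and a limit of 1.25-fold.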

Additional observations from a re-analysis of the deposited data

How the results depend on the processing

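The counts of receptor genes above the median of all genes (7) and their median level (log2 0.43 above the median gene, 0.39 to 0.46 with either library alone) held their direction under every alternative run. With the lower fold limit, 1 gene, RXRA, differed between libraries. From the difference of mean log2 levels per gene, expressed as a ratio, RXR over partners came to 0.78 instead of 0.405; that setting replaces sums by means and the linear by the log2 scale together. With a minimum mean FPKM of 1, 30 family genes had a value. Of 50 levels of single receptor genes recomputed from both libraries, 6 moved by over 1 SD and 0 changed sign, and of 33 pair ratios 5 moved and 0 changed sign. A single library lies within 1 SD of the mean of 2 by construction, so for its 20 levels and 22 pair ratios only the sign was compared, and 0 changed. Of 72 list values from both libraries 11 moved and 3 changed sign, and of 24 from a single library 1 changed sign: the family median without library a (0.013, against -0.16 without library b), corepressors (0.21) and vitamin D supply (-0.26) with list means, and PPAR targets with a minimum of 1 (-0.00057). These 4 lists therefore cannot be placed above or below the typical gene. The causes of the other changes were not tested. No paired analysis was possible because all samples form 1 group.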
